A study of Homo sapiens with 6 samples.

Results

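Wnt proteins are secreted, lipid-bearing ligands that act over short distances. In the canonical branch a Wnt binds a Frizzled receptor together with LRP5 or LRP6, the complex of AXIN and APC stops marking β-catenin (CTNNB1) for degradation, and β-catenin enters the nucleus and works there with TCF and LEF factors. Other Wnts act through Frizzleds and further receptors on cell polarity and movement without β-catenin. In the kidney, Wnt signals shape the nephron during development and come up again after injury of the tubule. The genes described here are those listed under a WNT or FZD symbol, together with 15 named coreceptors, modulators, destruction complex members and nuclear factors. These symbols took 49 of the 38648 rows of the deposited tables and stood for 45 gene names: 19 Wnt ligands, 10 Frizzled receptors, the 15 named genes and 1 noncoding transcript that starts back to back with FZD4 (FZD4-DT). One antisense row was left out, and 4 of the 49 rows were further copies of LRP6, WNT3 and WNT9B on scaffolds outside the chromosomes.

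The libraries came from HK-2 cells, an immortalized human proximal tubule epithelial line, in bulk RNA-seq. IR+NC-LV cells (n = 3) carried a negative control lentivirus and IR+PR-LV cells (n = 3) a PRDM16 overexpression lentivirus, and both were puromycin-selected cultures that had received 8 Gy of X-rays 7 days before harvest. Every library was therefore irradiated, and the effect of radiation cannot be read from this comparison. The labels number the cells 1 to 3 in each group and do not say whether these were separate cultures, so p-values measure the spread between these libraries, which may be technical.

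Total counts ranged from 13407074 to 28540041 per library. PRDM16, the overexpressed gene, had 2, 0 and 1 counts under IR+NC-LV against 14, 10 and 8 under IR+PR-LV, a rate 8.51 times as high (exact 95% binomial interval 2.66 to 43.4, counting error only; 2-sided exact permutation test over the libraries, p = 0.1, the smallest that 3 against 3 allow). Of 11 proximal tubule markers, 4 reached a mean of 1 TPM (a level corrected for gene length and library total), among them PAX8 and GGT1, whereas LRP2, ANPEP and HNF4A had between 3 and 19 counts in all 6 libraries. Of 6 epithelial markers, 5 reached 1 TPM, with a summed level of 2065 to 2150 TPM in IR+NC-LV and 2040 to 2531 TPM in IR+PR-LV. The endothelial list stayed under 0.640 TPM in sum. Fibroblast markers summed to 130 to 136 TPM and 106 to 150 TPM, most of it from LUM, with PDGFRA and DCN near 0. Leukocyte markers summed to 186 to 204 TPM in IR+NC-LV and 158 to 174 TPM in IR+PR-LV, nearly all of it from CD68, a lysosomal protein, while PTPRC, CD3E and MS4A1 had 10, 2 and 0 counts. The part of these shifts in the results below was not tested. In bulk RNA, fewer expressing cells and less RNA per cell cannot be told apart.

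Of the 31 Wnt members that could be tested for a difference between the groups, 0 passed the threshold (edgeR quasi-likelihood test on counts, Benjamini-Hochberg adjusted p under 0.05 over 15340 rows; smallest adjusted p among members 0.372). Over all rows tested, 10 passed (0.0652%). DESeq2 likewise called 0 of the 31 members at its adjusted p, against 173 rows in all (1.13%). At an unadjusted p under 0.05 there were 3 members in edgeR, LRP6 and FZD3 with higher and WNT10B with lower values in IR+PR-LV, and 1 in DESeq2 (LRP6), where 8.25% of all rows reached it. The edgeR count is 9.68% of the members tested, beside 10.5% of all rows tested, so the share among the members lay near the background. By direction it was 2 higher, beside 4.55% of all rows, and 1 lower, beside 5.97%. In level, the secreted proteins DKK3 and DKK1, β-catenin and the receptor FZD6 stood above every ligand in each library.

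To show the regulatory sequence around both ends of that range of levels, the 250 bases before the transcription start are given for DKK1, with a mean of 170 TPM over the 6 libraries, for the receptor FZD1, with 8.33 TPM, and for the ligand WNT7A, of which 1 count was found among 115430886. The sequences are those of RefSeq on GRCh38.p14, at chr10:52314031-52314280 (plus strand), chr7:91264183-91264432 (plus strand) and chr3:13880072-13880321 (minus strand), written 5′ to 3′ along the gene, with each CG dinucleotide in capitals.
DKK1: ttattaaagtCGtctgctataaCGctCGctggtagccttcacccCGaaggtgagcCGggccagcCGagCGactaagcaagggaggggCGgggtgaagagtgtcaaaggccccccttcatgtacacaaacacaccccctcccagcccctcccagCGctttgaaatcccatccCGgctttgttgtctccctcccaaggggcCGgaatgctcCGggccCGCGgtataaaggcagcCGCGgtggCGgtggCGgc
FZD1: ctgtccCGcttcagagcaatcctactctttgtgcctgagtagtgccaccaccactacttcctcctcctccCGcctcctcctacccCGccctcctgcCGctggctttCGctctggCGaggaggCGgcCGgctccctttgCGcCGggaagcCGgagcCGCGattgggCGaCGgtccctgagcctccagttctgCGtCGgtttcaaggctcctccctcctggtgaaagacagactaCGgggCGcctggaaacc
WNT7A: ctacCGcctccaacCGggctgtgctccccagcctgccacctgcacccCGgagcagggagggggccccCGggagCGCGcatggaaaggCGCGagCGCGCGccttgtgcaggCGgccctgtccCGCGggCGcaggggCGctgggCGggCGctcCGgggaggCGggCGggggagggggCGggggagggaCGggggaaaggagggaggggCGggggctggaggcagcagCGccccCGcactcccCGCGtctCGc
DKK1 held 18 CG dinucleotides in this window and FZD1 held 19, while WNT7A, close to unexpressed in these cells, held 29. Other members went the other way: CTNNB1, with a mean of 263 TPM, held 34, and WNT8B, with 12 counts in all, held 3.

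Such windows were found for 32 of the 45 gene names, 40 windows in all, since some genes have several. Their median GC content was 68.4% and their median number of CG dinucleotides 21.5, beside 58% and 11 over 35116 windows of all genes. The 29 windows of members with enough counts to test had a median of 18 CG dinucleotides, ranging from 0 at a start of RNF43 to 44 at WNT9A, and the 11 windows of members below the count filter had a median of 31, ranging from 3 at WNT8B to 40 at WNT4. By these medians the windows of members with few or no counts were the more CG-rich, which describes the reference sequence and is not a test. The 29 windows came from 21 genes, some with several starts, and the 11 windows from 11 genes. Among the 11, that of FZD4-DT overlaps the window of the tested FZD4 on the opposite strand. Members without a window included DKK3, FZD6 and WNT7B. ATCAAAG, a form of the TCF and LEF binding motif, searched on both strands, was in 0 of the 40 windows and in 2.26% of all windows. The shorter ACAAAG was in 7 of the 40 (17.5%), beside 13.7% of all windows, and a match or its absence in this stretch says nothing of binding elsewhere.

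Wnt ligands were few and low. Of the 19 ligands, 8 had enough counts to test and 11 did not (WNT1, WNT2, WNT3, WNT3A, WNT4, WNT6, WNT7A, WNT8A, WNT8B, WNT9B and WNT11, with between 1 and 42 counts each over the 6 libraries, copies included). The 11 together made up between 1.31% and 3.43% of the summed ligand TPM of a library. WNT5B, a ligand known mainly for signalling without β-catenin (chromosome 12, 1529856 to 1647213, plus strand), had 23.2, 26.6 and 17.0 TPM under IR+NC-LV and 21.6, 20.5 and 18.5 TPM under IR+PR-LV. It held 44.5% ± 7.47 (SD, n = 3) of the summed ligand level in IR+NC-LV and 43.6% ± 2.77 (SD, n = 3) in IR+PR-LV. The IR+NC-LV libraries spanned the whole range, with replicate 3 lowest and replicate 2 highest, and the IR+PR-LV libraries lay between them. Of the exon bases of WNT5B, 17.1% overlap a gene on the opposite strand. If the counting ignored strand, reads from these bases may have been added to its count or left out of it. How such reads were counted is not given in the sources used here.

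WNT7B, a ligand of epithelial cells that supports canonical signalling (chromosome 22, 45920362 to 45977162, minus strand), had 13.6, 13.3 and 13.0 TPM in IR+NC-LV and 16.4, 13.0 and 13.5 TPM in IR+PR-LV. A single library, IR+PR-LV replicate 1, stood above the others. WNT9A and WNT5A followed with means of 3.70 and 3.39 TPM over the 6 libraries, with libraries from 2.78 to 4.56 TPM and from 2.84 to 4.31 TPM, so that these neighbours in the order overlapped. WNT5A is the best known ligand of the branch without β-catenin. Its row has 14721 exon bases and that of WNT9A 4671, and in counts WNT5A stood above WNT9A, at 1723 against 591 over the 6 libraries. These 4 ligands held between 83.2% and 89.6% of the summed ligand level. WNT10B, WNT10A, WNT2B and WNT16 had means from 0.637 to 2.02 TPM. The order and the shares of the ligands rest on listed exon bases. In counts WNT5B was also the highest, at 2943, and WNT7B (4162 exon bases) had 2023, nearer to WNT5A than in TPM. WNT2B (12252 exon bases) had 416 counts, above WNT10B (4494 exon bases) with 311. WNT16, with 4 to 20 counts per library, varied most of all tested members, its highest library 6.28 times its lowest in CPM (counts scaled by TMM-normalized library size).

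The ligand with the smallest p was WNT10B, a canonical Wnt known for its roles in bone and fat (chromosome 12, 48965340 to 48979587, minus strand). Its levels were 3.40, 3.13 and 3.24 CPM in IR+NC-LV and 2.08, 2.15 and 2.61 CPM in IR+PR-LV. All IR+PR-LV libraries lay under all IR+NC-LV libraries. The log2 fold change was -0.52 (standard error 0.17, 95% interval -0.90 to -0.13), with an unadjusted p of 0.014 and an adjusted p of 0.372 from edgeR, so it did not pass. Dropping any single library kept it between -0.62 and -0.46. Its exons share 89 bases (1.98%) with WNT1 on the opposite strand, which had 4 counts in all. The other ligands had log2 fold changes from -0.84 (WNT16) to 0.14 (WNT7B), all with adjusted p of 0.672 or more from edgeR. WNT16 had the widest interval, -2.21 to 0.52, and its value was -1.39 when IR+NC-LV replicate 2 was dropped and -0.41 when replicate 1 of that group was. For WNT2B the libraries did not overlap between the groups either, at 3.37 to 3.58 CPM and 3.61 to 4.02 CPM, but the log2 fold change of 0.10 was smaller than its standard error of 0.15, and 39.2% of its exon bases overlap ST7L on the opposite strand.

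**Figure D1:**
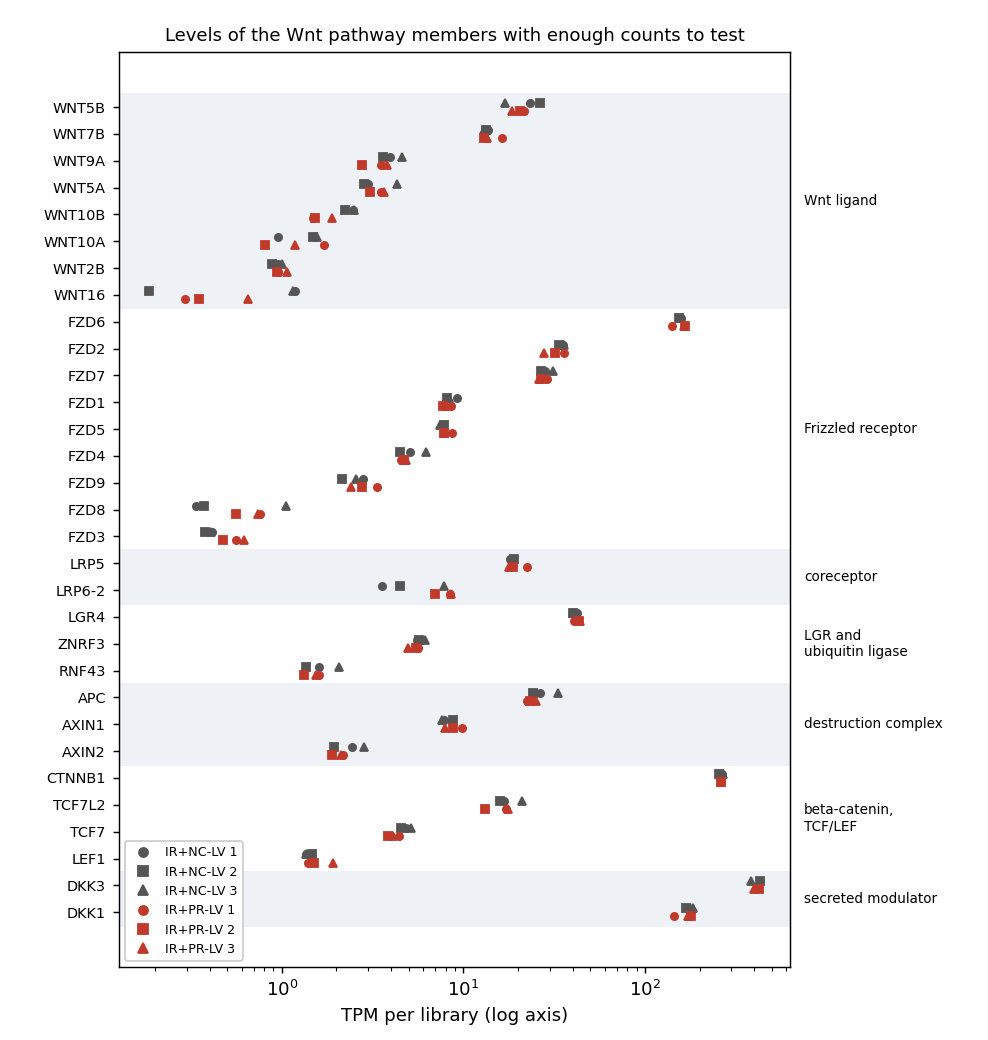
TPM of the 31 tested members in each library on a log axis, grouped by role, with IR+NC-LV in grey and IR+PR-LV in red and 1 symbol shape per replicate number. DKK3, CTNNB1, DKK1 and FZD6 lie above 100 TPM in all 6 libraries, and WNT5B, the highest ligand, lies between 17.0 and 26.6 TPM.

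Frizzled receptors, which bind Wnts through a cysteine-rich domain outside the cell, were all listed with counts except FZD10, whose 0 of 115430886 counts allows up to 0.026 CPM. FZD6 (chromosome 8, 103298494 to 103332866, plus strand), a receptor tied to planar cell polarity, made up 63.9% ± 0.886 (SD, n = 3) of the summed Frizzled TPM in IR+NC-LV and 65.1% ± 3.92 (SD, n = 3) in IR+PR-LV. Its levels were 158, 154 and 159 TPM in IR+NC-LV and 140, 167 and 165 TPM in IR+PR-LV. Replicate 1 of IR+PR-LV was the lowest of the 6 and the other two of that group were the highest. FZD2 had 35.5, 33.6 and 36.0 TPM in IR+NC-LV and 36.0, 31.9 and 27.9 TPM in IR+PR-LV, and FZD7, which mediates canonical signals in many epithelia, had 26.7 to 31.0 and 26.1 to 28.8 TPM. Below them came FZD1 and FZD5 with overlapping libraries (means 8.33 and 7.88 TPM), then FZD4, FZD9, FZD8 and FZD3 with means of 4.97, 2.68, 0.637 and 0.475 TPM. The last place of FZD3 rests on its 14086 listed exon bases. In counts over the 6 libraries it had 237, above FZD9 with 221 (2343 exon bases) and FZD8 with 87 (4050 exon bases). Opposite-strand genes cover 18.9% of the exon bases of FZD4 (PRSS23) and 16.0% of those of FZD5 (CCNYL1). The summed Frizzled level, 232 to 252 TPM, was between 4.57 and 5.71 times the summed ligand level of the same library.

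FZD3, a receptor of planar polarity and axon guidance (chromosome 8, 28494212 to 28574268, plus strand), had the smallest p among the Frizzleds. Its levels were 1.79, 1.66 and 1.65 CPM in IR+NC-LV and 2.44, 2.11 and 2.66 CPM in IR+PR-LV, from 23 to 59 counts per library. The 2 groups did not overlap, with every IR+PR-LV library above every IR+NC-LV library. The log2 fold change was 0.49 (standard error 0.18, 95% interval 0.07 to 0.90), with an unadjusted p of 0.026 and an adjusted p of 0.405 from edgeR. Dropping any single library kept it between 0.41 and 0.58. The other 8 Frizzleds had log2 fold changes between -0.12 (FZD4) and 0.34 (FZD8), with adjusted p of 0.710 or more from edgeR. Single libraries weighed on both ends of that range, FZD8 lying between 0.083 (IR+NC-LV replicate 1 dropped) and 0.91 (IR+NC-LV replicate 3 dropped) and FZD4 between -0.20 (IR+NC-LV replicate 2 dropped) and -0.022 (IR+NC-LV replicate 3 dropped). For FZD6 the 95% interval was -0.13 to 0.22, and for FZD7 -0.19 to 0.14.

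Of the coreceptors, LRP5 (chromosome 11, 68298866 to 68449275, plus strand) had 18.0, 18.9 and 18.6 TPM in IR+NC-LV and 22.4, 18.7 and 17.9 TPM in IR+PR-LV. Its log2 fold change was 0.12 (95% interval -0.10 to 0.35). LRP6 was listed in 2 rows of 10252 exon bases each, one on chromosome 12 (12116025 to 12267044, minus strand) and one, LRP6-2, on a scaffold (85023 to 236042, minus strand). Of the counts of both rows, between 97.9% and 99.8% in each library were on LRP6-2, 2385 of 2400 in all. How reads that fit both copies were treated is not given in the sources used here, so the level per length of LRP6 is uncertain, and LRP6 cannot be ranked against LRP5.

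LRP6-2 had 11.3, 14.4 and 22.9 CPM in IR+NC-LV and 27.1, 22.3 and 26.9 CPM in IR+PR-LV. IR+NC-LV replicate 3 lay above IR+PR-LV replicate 2, so the groups overlapped, and the SD within IR+NC-LV (6.02 CPM) was more than that within IR+PR-LV (2.69 CPM). The log2 fold change was 0.66 (standard error 0.22, 95% interval 0.17 to 1.15), with an unadjusted p of 0.0137 and an adjusted p of 0.372 from edgeR. With both rows summed it was 0.66 with an adjusted p of 0.340 from edgeR. It was 0.45 when IR+NC-LV replicate 1 was dropped, and 0.98 when replicate 3 of that group was, with an adjusted p of 0.0911 from edgeR. When every row with at least 1 count was kept, LRP6-2 passed (adjusted p 0.00187 from edgeR), 1 of 342 rows that did so among 28831. DESeq2 gave an adjusted p of 0.0914. Rows whose gene name was listed more than once, as LRP6 is, had an unadjusted p under 0.05 in 20.5% of 947 tested and in the higher direction in 16.7%, beside 9.87% and 3.75% of the 14393 rows listed once. On the scaffold of LRP6-2, 2 other rows were tested, DUSP16-2 and BORCS5-2, with log2 fold changes of 1.07 and 1.03. Whether the division of reads between copies had a part in the LRP6 difference was not tested.

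**Figure D2:**
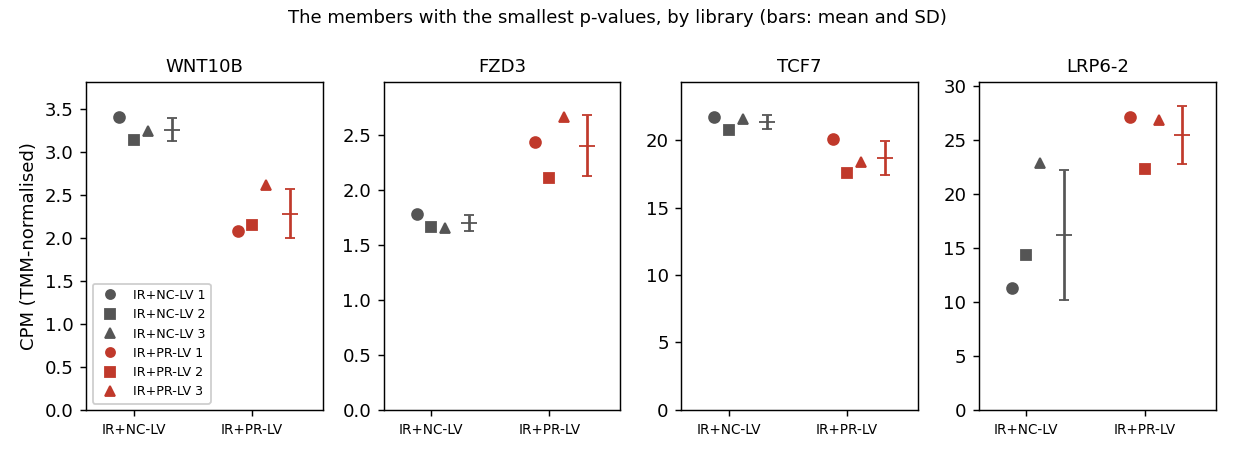
CPM (scaled by TMM-normalized library size, axes from 0) of WNT10B, FZD3, TCF7 and LRP6-2 in each of the 6 libraries, with the mean and SD of each group beside its points. The libraries of the groups do not overlap for WNT10B, FZD3 and TCF7, and IR+NC-LV replicate 3 reaches the IR+PR-LV range for LRP6-2.

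LGR4, LGR5, RNF43 and ZNRF3 set how many Frizzleds stay at the surface. RNF43 and ZNRF3 are ubiquitin ligases that remove Frizzleds, and the LGR proteins, as receptors of R-spondins, restrain them. LGR4 (chromosome 11, 27365961 to 27472790, minus strand) had 42.5, 40.4 and 40.2 TPM in IR+NC-LV and 40.6, 43.6 and 44.1 TPM in IR+PR-LV. ZNRF3 followed with 5.57, 5.66 and 6.18 TPM against 5.60, 5.51 and 4.99 TPM, and RNF43 with a mean of 1.58 TPM. In both the libraries of the groups overlapped. LGR5, a stem cell marker, had 4 to 13 counts per library and was not tested. Log2 fold changes were 0.10 for LGR4, -0.07 for ZNRF3 and -0.12 for RNF43, with 95% intervals of -0.07 to 0.26, -0.29 to 0.14 and -0.53 to 0.28. Of the exon bases of RNF43, 16.4% overlap TSPOAP1-AS1 on the opposite strand.

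In the destruction complex, APC (chromosome 5, 112707498 to 112846239, plus strand) had 26.5, 24.3 and 33.3 TPM in IR+NC-LV and 22.5, 23.3 and 25.3 TPM in IR+PR-LV. The highest value was that of IR+NC-LV replicate 3, and the groups overlapped. The log2 fold change was -0.19 (95% interval -0.40 to 0.0075, adjusted p 0.487 from edgeR). AXIN1, the scaffold of the complex, had 7.87, 8.72 and 7.67 TPM against 9.89, 8.74 and 7.88 TPM, a log2 fold change of 0.16 (95% interval -0.11 to 0.42). AXIN2, which is both a scaffold and a widely used readout of β-catenin signalling, had 2.45, 1.95 and 2.85 TPM in IR+NC-LV and 2.17, 1.88 and 2.11 TPM in IR+PR-LV. Its log2 fold change was -0.18 (95% interval -0.56 to 0.20, adjusted p 0.745 from edgeR), within the spread of the libraries.

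CTNNB1 itself (chromosome 3, 41199422 to 41240445, plus strand) was the steadiest of the tested members, with 265, 255 and 271 TPM in IR+NC-LV and 263, 262 and 262 TPM in IR+PR-LV. Its highest library was 1.06 times its lowest in CPM, and the 95% interval of the log2 fold change was -0.09 to 0.15. β-catenin acts mostly through the stability of its protein, which these data do not measure. Of TCF7L2, TCF7 and LEF1, TCF7L2 was the highest in TPM, with 71.1% to 76.4% of their sum. This share rests on length, since TPM divides by all listed exon bases, 5296 for TCF7L2 and 14594 for TCF7. In counts they lay closer, at 3064 and 2269 over the 6 libraries. TCF7L2 had 16.7, 15.9 and 21.0 TPM in IR+NC-LV and 17.1, 13.1 and 17.7 TPM in IR+PR-LV, and its log2 fold change was -0.12 (95% interval -0.40 to 0.16). TCF7 had 21.7, 20.8 and 21.6 CPM in IR+NC-LV and 20.1, 17.6 and 18.4 CPM in IR+PR-LV, so that the groups did not overlap. The difference on the log2 scale was -0.20 (95% interval -0.39 to 0.00041), and edgeR gave it an adjusted p of 0.477. LEF1, itself a known target of the pathway, was the lowest of the 3 with 1.35 to 1.47 TPM and 1.39 to 1.91 TPM, and a log2 fold change of 0.22 (95% interval -0.23 to 0.68).

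Of the secreted modulators, DKK3 had the highest level of all members, and DKK1 came after CTNNB1. DKK3 (chromosome 11, 11963036 to 12009827, minus strand), a Dickkopf relative whose effect on Wnt signalling depends on the cell, had 429, 430 and 382 TPM in IR+NC-LV and 410.5, 426 and 399.8 TPM in IR+PR-LV. DKK1 (chromosome 10, 52314281 to 52317657, plus strand), which blocks LRP5 and LRP6 and is itself a target of β-catenin, had 175, 167 and 183 TPM in IR+NC-LV and 144, 179 and 174 TPM in IR+PR-LV. The groups overlapped for both, and DKK3 was between 2.08 and 2.86 times DKK1 in every library. Their log2 fold changes were 0.03 (95% interval -0.16 to 0.22) and -0.04 (95% interval -0.23 to 0.15).

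**Figure D3:**
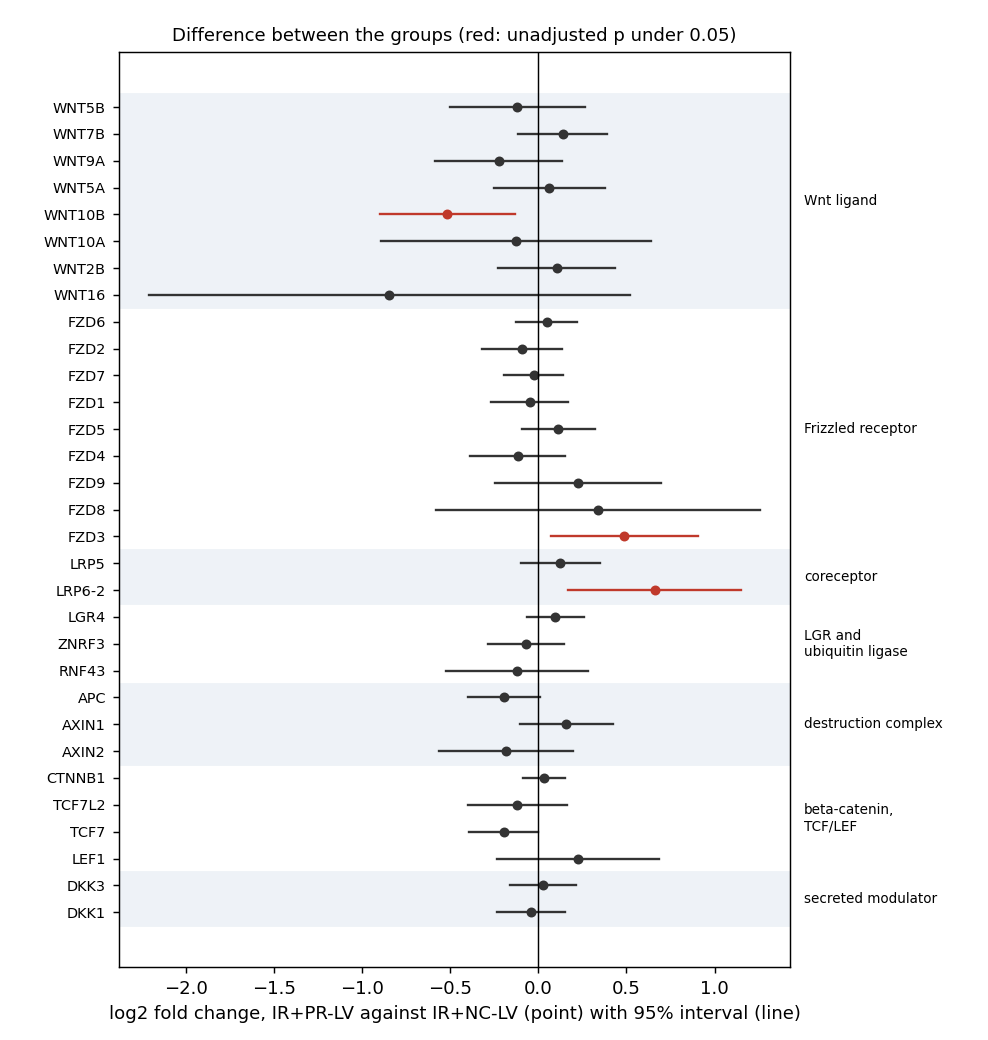
Log2 fold change of each tested member (point) with its 95% interval (line), grouped by role, with members at an unadjusted p under 0.05 in red. The intervals of 28 of the 31 members lie within -1 and 1, and those of WNT16, FZD8 and LRP6-2 reach beyond.

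Of the whole list, 15 of the 31 tested members had positive and 16 negative log2 fold changes, and their median was -0.03, beside 0.0044 over all rows tested, where 51.1% were positive. Without one library the median lay between -0.0092 and 0.025, so it had no stable sign. The libraries of the groups did not overlap for 4 members (12.9%), namely WNT2B and FZD3 upward (beside 7.46% of all rows) and WNT10B and TCF7 downward (beside 9.54%), beside 17.0% of all rows tested in either direction. The 95% interval lay within -1 and 1 on the log2 scale for 28 members (90.3%), which leaves out a doubling or halving of these members at that confidence, and the same held for 89.1% of all rows. Another 16 rows with a count fell below the count filter and had no test in this fit, and 2 had no count (FZD10 and the chromosome row of WNT9B).

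The other genes of the pathway gave a similar picture. A list of 81 genes for secretion, inhibition, R-spondins, intracellular transduction, planar polarity and known targets held 58 tested genes, of which 0 passed the threshold in edgeR or in DESeq2. At an unadjusted p under 0.05 there were 5 in edgeR (8.62%, beside 10.5% of all rows) and 3 in DESeq2 (beside 8.25% of all rows). In 2 of the 5 the value was higher in IR+PR-LV, beside 4.55% of all rows in that direction, and in 3 it was lower, beside 5.97%. The median log2 fold change was 0.02 (33 positive, 25 negative). The libraries of the groups did not overlap in CPM for 7 of the 58 (12.1%), beside 17.0% of all rows tested. Of these, 4 were higher in IR+PR-LV (PPP2R5A, AMER1, TCF7L1 and CELSR2), beside 7.46% of all rows. The 3 lower ones were DVL2, PYGO2 and JUN, beside 9.54%.

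Machinery for making and sensing Wnts was present. WLS, which carries Wnts to the cell surface, had 87.0 ± 7.08 TPM in IR+NC-LV and 80.3 ± 1.55 TPM in IR+PR-LV, and PORCN, which attaches their lipid, had 31.2 ± 6.69 and 25.6 ± 2.95 TPM (SD, n = 3 each). R-spondins were near absent, with 0 to 19 counts in all for each of RSPO1 to RSPO4, and LGR6 had 0. Among secreted inhibitors, DKK2, DKK4, SFRP1, SFRP5, WIF1 and SOST had 2 to 4 counts each in all. SFRP2, SFRP4, DKKL1 and SOSTDC1 had 48, 39, 25 and 12 and were not tested. FRZB had 73, with a log2 fold change of -0.31 and an adjusted p of 0.772 from edgeR. NOTUM, which removes the lipid from Wnts, had 18 to 40 counts per library. Its levels were 1.43, 1.47 and 1.296 CPM in IR+NC-LV and 2.38, 1.39 and 1.685 CPM in IR+PR-LV. The groups overlapped, and IR+PR-LV replicate 1 was the highest library. The log2 fold change of NOTUM was 0.35, with an adjusted p of 0.67 from edgeR. KREMEN2 and KREMEN1, receptors of DKK1, had means of 8.19 and 4.54 TPM in IR+NC-LV and of 8.45 and 4.99 TPM in IR+PR-LV.

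Inside the cell, the 3 Dishevelled genes, which relay the signal from Frizzled, were all expressed, DVL1 and DVL3 at 67.8 ± 1.63 and 60.1 ± 1.71 TPM in IR+NC-LV and at 71.6 ± 13.5 and 58.5 ± 2.41 TPM in IR+PR-LV (SD, n = 3 each). DVL2 had 40.2, 42.2 and 41.5 CPM in IR+NC-LV and 40.0, 35.7 and 31.6 CPM in IR+PR-LV, without overlap, and a log2 fold change of -0.21 (adjusted p 0.474 from edgeR). CSNK1A1, the kinase that primes β-catenin, had 239 ± 10.1 and 234 ± 5.78 TPM (SD, n = 3 each) and a log2 fold change of 0.0098. PPP2R5A had 68.7 ± 4.48 and 73.4 ± 2.91 TPM (SD, n = 3 each). The corepressor TLE1 had 82.5 ± 3.12 and 81.5 ± 4.72 TPM, and PYGO2 31.9 ± 1.53 and 28.8 ± 0.554 TPM (SD, n = 3 each). TCF7L1, a TCF factor that mostly represses, had 0.954, 1.66 and 1.22 CPM in IR+NC-LV and between 1.91 and 2.01 CPM in IR+PR-LV, from 16 to 56 counts. The groups did not overlap, and the difference on the log2 scale was 0.60 with an adjusted p of 0.417 in edgeR.

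Of the receptors of the branch without β-catenin, RYK had 139.8 ± 4.04 and 146 ± 7.69 TPM and ROR1 22.4 ± 0.649 and 21.3 ± 0.459 TPM (SD, n = 3 each), while ROR2 had 6 counts in all. CELSR2, a planar polarity cadherin, had 44.5, 44.6 and 46.4 CPM in IR+NC-LV and 58.8, 48.7 and 49.2 CPM in IR+PR-LV, without overlap, and its log2 fold change was 0.21 (adjusted p 0.448 from edgeR). PRICKLE1, of the same pathway, had 69.4, 58.7 and 78.7 CPM against 58.4, 56.5 and 60.9 CPM, overlapping, and a log2 fold change of -0.23 (adjusted p 0.473 from edgeR). DAAM1, which links Dishevelled to actin, had 25.7 ± 2.22 and 25.5 ± 0.547 TPM (SD, n = 3 each).

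Among known targets of β-catenin, the smallest p was that of JUN, which many other signals also set. It had 256, 243 and 249 CPM in IR+NC-LV and 234, 210 and 195 CPM in IR+PR-LV, with no overlap. The log2 fold change was -0.23 (standard error 0.07, unadjusted p 0.0115, adjusted p 0.35 from edgeR). CD44 and MMP7 were the highest of the list, at 486 ± 25.3 and 309 ± 99.7 TPM in IR+NC-LV and 491 ± 5.65 and 317 ± 62.3 TPM in IR+PR-LV (SD, n = 3 each). The target genes SP5 and NKD1, which respond narrowly to the pathway, had 17 to 42 and 6 to 22 counts per library, with log2 fold changes of 0.16 and -0.37 and adjusted p of 0.856 and 0.774 from edgeR. ASCL2 and CDX2 had 0 counts.

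**Figure D4:**
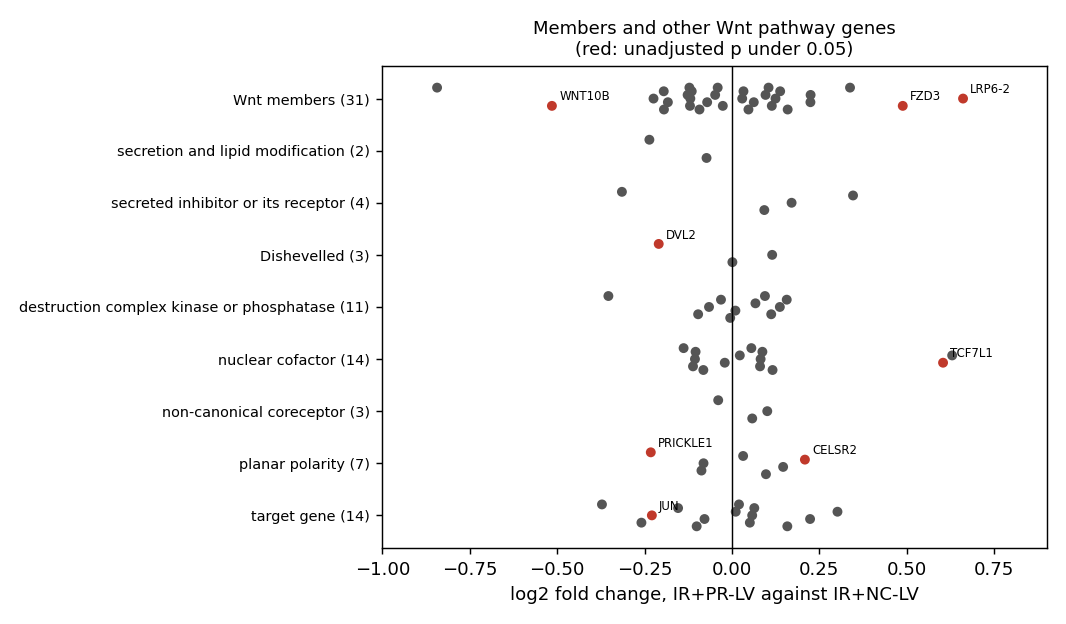
Log2 fold changes of the 31 tested members and of 58 other Wnt pathway genes by role (number tested in brackets), with genes at an unadjusted p under 0.05 in red and named. Most points lie near 0 in each role, and 0 genes passed the adjusted threshold.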

How the data were processed

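Bulk RNA-seq of 6 libraries was used, 3 per group, assigned by the sample titles. Poly(A)-selected RNA was read from both ends on an MGI platform, and adapter-bearing and low-quality reads had been discarded. The submitters' processing notes name CASAVA, featureCounts 2.0.1, DESeq2 1.16.1 and hg38; the aligner, annotation and strand setting are not given in the sources used here. The authors deposited the raw read count per gene row, which entered all tests. The deposited TPM values (count per gene length, scaled to a common sum) gave the levels. FPKM values were also deposited and are proportional to TPM within a library. Both could be recomputed from the counts.

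The counts were filtered with filterByExpr (minimum count 10, minimum total 15), TMM-normalized and compared with the quasi-likelihood test of edgeR 4.0.16 in R 4.3.3, without covariates. Standard errors came from the fold change and F statistic. In simulated counts for this comparison (15162 rows), 177 of 200 rows changed by 1 on the log2 scale were recovered, with 6 false calls. Every simulated row had the same spread between libraries (biological coefficient of variation 0.106), whereas members differed, with standard errors such as 0.05 (CTNNB1) and 0.60 (WNT16). Smaller changes were not simulated, so this recovery does not hold for each member. Values in every library were given for members at an unadjusted p under 0.05 and the 2 highest per role, among other pathway genes for those at that p, and group means for their 2 highest. WNT2B, TCF7, AXIN2, NOTUM, SP5, NKD1 and several genes near 0 were singled out after their values were seen. The members and lists were chosen with earlier results of these data known. Alternatives were DESeq2 1.42.0, upper-quartile and RLE normalization, 2 other count filters, the replicate number as a block, summed copies and each library left out.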

Additional observations from a re-analysis of the deposited data

How the results depend on the processing

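Across the 31 tested members, RLE and upper-quartile normalization, DESeq2, the replicate block and summed copies each left all 31 with the same direction and short of the threshold, as did a filter of 10 counts in every library for the 29 it kept. Keeping every row with 1 count or more brought 1 member past the threshold (LRP6-2, log2 fold change 0.67). Leaving out one library kept the direction of 20 of the 31, and 0 members passed in those fits. The log2 fold change changed sign for FZD7 (-0.066 to 0.013), WNT10A (-0.41 to 0.14), WNT5A (-0.029 to 0.23), FZD1 (-0.097 to 0.014), FZD6 (-0.0062 to 0.12), DKK1 (-0.11 to 0.049), TCF7L2 (-0.19 to 0.0017), DKK3 (-0.056 to 0.082), WNT5B (-0.30 to 0.060), FZD2 (-0.18 to 0.0021) and RNF43 (-0.24 to 0.0096). Of the 20 that kept their direction, 16 moved by over 1.5 times in at least one of these fits, and TCF7, FZD3, WNT10B and LRP6-2 did not. Members at an unadjusted p under 0.05 numbered 1 with DESeq2 (beside 8.25% of all rows), and from 2 to 5 with one library left out (5 without IR+NC-LV replicate 3, beside 9.08% of all rows in that fit; 6.06% to 16.4% over the 6 fits). Over all rows, those past the threshold numbered 173 with DESeq2, 342 with the 1-count filter, 3 with the replicate block, and from 1 to 28 with one library left out (1 when the first IR+NC-LV or the third IR+PR-LV library was dropped, 16 and 28 when the third and the second IR+NC-LV library were). The cause of these changes was not tested. Same-numbered libraries deviated together with correlations of -0.0088, 0.051 and 0.071. IR+NC-LV replicates 2 and 3 correlated best with the same number, and replicate 1 with IR+PR-LV replicate 2 (0.062). The labels state no pairing, so the numbers were not taken as pairs in the main fit. The WNT5B share of the ligand level stayed between 42.6% and 45.6% and the FZD6 share of the Frizzled level between 63.8% and 65.3% with one library left out. FPKM is proportional to TPM within a library, so its shares are the same by definition and are no check. The count filter left 11 ligands out of the test. Their rows with a count entered the fit that kept every row with 1 count or more, where 0 of them passed. With between 1 and 42 counts each over the 6 libraries they had little room to pass, so this says little about them.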
